A study of Sus scrofa with 6 samples.

Results

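The regions described here carried an ATAC-seq peak in all 3 libraries of deoxyshikonin-stimulated porcine (Sus scrofa) intestinal epithelial cells and in only 1 or 2 of the 3 control libraries. They are called partly shared regions. Peaks of the 6 lists were merged into 1 region where they shared at least 1 bp, and the rule selected 5679 of 51099 merged regions (11.1%). They made up 22.8% of the 24953 regions present in all 3 drug libraries and covered 3.38 Mb. Because peak calls in all 6 libraries chose the regions, every difference in calls or height between drug and control below is a description, and no p-value is given.

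The study compared 2 groups of intestinal epithelial cells, 3 control libraries and 3 libraries of cells stimulated with a drug, which the series names as deoxyshikonin. The sources used here give no dose, duration, cell line or animal of origin, or vehicle. The labels do not name the culture or animal behind each library, and the spread between libraries may therefore be technical. The label of the cells could not be checked against marker genes, because the contigs of these lists were not tied to genes.

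ATAC-seq uses the Tn5 transposase to cut and tag DNA that is not wrapped in nucleosomes, so that open promoters and enhancers appear as pile-ups of sequenced tags. Accessibility is graded, and a peak list turns it into a yes or no at a threshold. Deoxyshikonin is a naphthoquinone of the shikonin family, compounds of the roots of gromwell plants. Intestinal epithelial cells form the lining between gut contents and tissue and respond to many signals by opening enhancers.

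The control lists held 17169 to 25888 peaks and the drug lists 33295 to 39281. The mean tag pileup of a library over the genome, a measure of its depth, was 1.89, 2.13 and 2.57 in control replicates 1 to 3. It was 2.06, 1.46 and 1.96 in drug replicates 1 to 3. Height below means the tag pileup at the peak summit over this mean. Over the 13209 regions present in all 6 libraries (fully shared regions), the median height was 17.5, 13.6 and 17.1 for control replicates 1 to 3. For drug replicates 1 to 3 it was 17.5, 21.2 and 19.4. Heights are given relative to these library medians unless stated otherwise.

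Which control libraries held the peak was very uneven. Of the partly shared regions, 3295 (58.0%) had a peak in 2 controls and 2384 in 1 control. Control replicate 3 had a peak in 4918 of them (86.6%), control replicate 1 in 3314 (58.4%) and control replicate 2 in 742 (13.1%). The order follows the length of the 3 control lists.

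The most frequent pattern was a peak in controls 1 and 3 but not in control 2, with 2669 regions (47.0%). A peak in control 3 alone followed with 1719 regions (30.3%), then control 1 alone with 549 (9.67%) and controls 2 and 3 with 530 (9.33%). Control 2 alone held 116 regions and controls 1 and 2 together held 96. Among the regions with 2 control peaks, control replicate 2 was the missing library in 81.0%, control replicate 1 in 16.1% and control replicate 3 in 2.91%. Control replicate 2 was not the shallowest library, but it had the lowest median height at fully shared regions and the shortest list. The part that these features of control replicate 2 play in the number of partly shared regions was not tested.

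**Figure D1:**
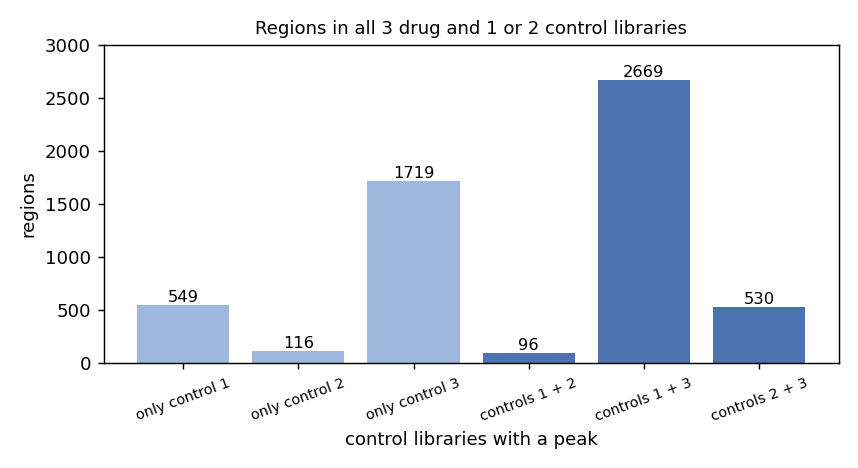
Number of partly shared regions (vertical axis) for each combination of control libraries that held a peak (horizontal axis), with light bars for 1 control and dark bars for 2. The bar for controls 1 and 3, with 2669 regions, is the tallest, and both bars that lack control 3 but include control 2 hold 116 regions or fewer.

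With control replicate 2 set aside, 2669 of the 5679 regions would have a peak in every remaining library. Another 2894 (51.0%) would be present in 1 of the 2 remaining controls and 116 (2.04%) in none. With control replicate 3 set aside, 1719 regions (30.3%) would have no control peak and 96 (1.69%) would have both. When peaks were merged again without control replicate 2 and the rule was applied to the other 5 libraries, 2896 regions were partly shared. Without control replicate 1 or 3 the number was 4607 or 3880.

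A control peak present in 2 libraries was found again in all 3 drug libraries more often than a control peak present in 1. Of all regions with peaks in exactly 2 controls, 58.7% were present in all 3 drug libraries and 10.2% in none of them. For regions with exactly 1 control peak these shares were 30.8% and 34.4%. By pattern, the share present in all 3 drug libraries was 61.6% for controls 1 and 3, 50.3% for controls 2 and 3 and 43.0% for controls 1 and 2. It was 31.7% for control 3 alone, 31.6% for control 1 alone and 20.4% for control 2 alone.

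The opposite class was smaller in the full lists. Regions present in all 3 controls and in 1 or 2 drug libraries numbered 1009, so partly shared regions were 5.63 times as numerous. Both numbers move with the length of the lists and with the libraries included. Without control replicate 2 the counts were 2896 partly shared and 2309 of the opposite class. They were 4607 and 1386 without control replicate 1, and 3880 and 1111 without control replicate 3. Leaving out a control changes the criterion of both classes by construction, so these counts and the full ones are not like for like. With all lists held to 17169 peaks, the length of the shortest, the 2 counts were 1580 and 2396, in the reverse order.

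Partly shared regions were intermediate in width, rank and relative height between drug-only regions (3 drug, 0 control) and fully shared regions. These classes are themselves defined by the number of control calls. Their median width as merged regions was 562 bp (quartiles 444 and 700), against 798 bp for fully shared regions. The widest peak per region had a median of 420, 377 and 407 bp in drug replicates 1 to 3, a mean of 401 ± 22.1 bp (SD, n = 3). At drug-only regions the corresponding mean was 359 ± 14.5 bp and at fully shared regions 607 ± 36.2 bp (SD, n = 3 each). All 3 drug libraries gave the same order of the 3 classes.

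Their drug peaks sat near the middle of the drug lists. Ranked by −log10 q within its list, where q is the authors' adjusted p of a peak, the median partly shared peak was at percentile 51.8 in drug replicate 1, 48.5 in drug replicate 2 and 56.2 in drug replicate 3. Drug-only peaks stood at 42.0, 40.1 and 44.2 and fully shared ones at 79.3, 77.4 and 81.1. Peaks above percentile 90 of their list numbered 106, 92 and 110 in drug replicates 1 to 3 (1.87%, 1.62% and 1.94%). These shares were 0.511%, 0.775% and 0.528% at drug-only regions and 26.0%, 24.1% and 28.7% at fully shared ones. The authors' fold enrichment over local background had a median of 5.11, 5.47 and 5.59 at these drug peaks.

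Their control peaks ranked low in every control list. By the same ranking the median control peak was at percentile 28.2 in control 1, 19.1 in control 2 and 31.8 in control 3, and 0 control peaks were above percentile 90 in any of the 3 lists. A −log10 q under 5 was found for 16.4%, 29.0% and 9.94% of them. In the drug libraries the same share was 8.14%, 9.81% and 4.01%. Control lists are shorter than drug lists, so percentiles are comparable within a list and not across groups. In the opposite class the drug libraries are the partly called side. Its drug peaks had a median percentile of 32.7, 28.8 and 37.2 in drug replicates 1 to 3, with 0 above percentile 90. The rule selects regions called in only part of the controls, so low control ranks are not independent of it.

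Relative height was greater the more controls had called the region. In the drug libraries the median relative height was 0.583, 0.581 and 0.553 of the library median at drug-only regions. It was 0.639, 0.645 and 0.632 where 1 control had a peak and 0.722, 0.710 and 0.711 where 2 did, in drug replicates 1 to 3. The drug libraries differed from each other by less than the steps between classes. The control peaks themselves had median relative heights between 0.485 and 0.569 where only 1 control had a peak, and 0.636, 0.655 and 0.614 where 2 controls had one.

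**Figure D2:**
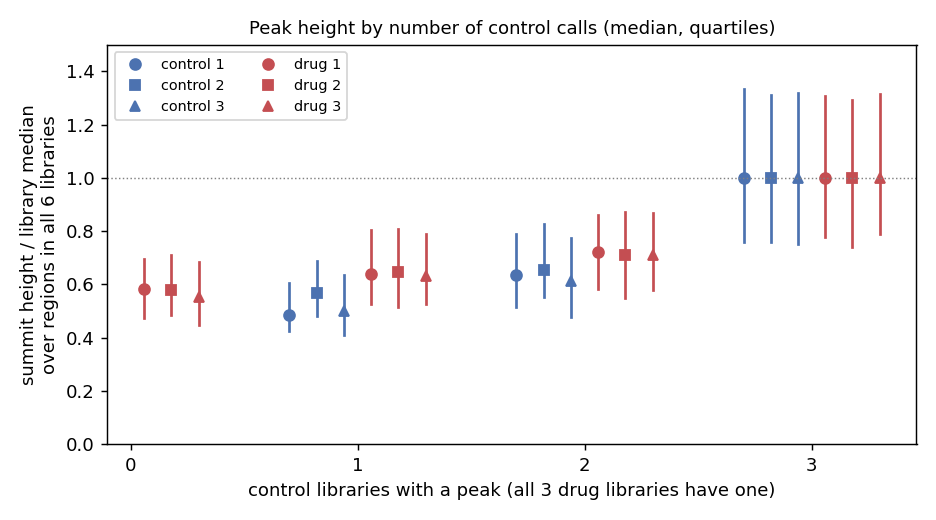
Summit height relative to the library's median over fully shared regions (vertical axis) by the number of control libraries with a peak (horizontal axis), in regions present in all 3 drug libraries. Symbols are medians and lines span the quartiles over regions, blue for controls and red for drug. Drug medians lie at 0.553 to 0.583 with 0 control peaks and at 0.710 to 0.722 with 2, and fully shared regions are at 1 by construction.

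Where a control peak existed, the drug peak was on average only moderately higher. At each region the mean log2 relative height of the 3 drug libraries was set against that of the controls with a peak. The median difference was 0.19 over all partly shared regions, 0.28 with 1 control peak and 0.13 with 2. It was −0.02 at fully shared regions. The library medians were taken over these same fully shared regions, so the centring keeps that value small by construction. In the opposite class, where only drug libraries with a peak enter the drug mean, the median difference was −0.29. The drug mean was higher at 69.7% of partly shared regions and at 46.3% of fully shared ones. The centring also holds the latter share near an even split. Scaling by depth alone raised the median to 0.38 at partly shared regions and to 0.25 at fully shared regions, and the drug mean was then higher at 86.1% and 82.3% of them. The median at partly shared regions was 0.11 without control replicate 3 and 0.32 in lists of equal length, with the members chosen anew each time. Controls without a peak have no value and do not enter, so these differences cover called peaks only.

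Full separation of drug from control heights was found for a minority of the regions with 2 control peaks. All 3 drug heights lay above both control heights at 1045 of 3295 regions (31.7%), beside 17.2% of all 16504 regions with 3 drug and 2 or 3 control peaks. Under scaling by depth alone the count was 1553 (47.1%), beside 32.4% of the 16504 regions and 28.8% of the fully shared ones. Fully shared regions had every drug height above every control height in 13.5% of cases in library-centred heights, the scale used again from here, and every one below in 15.6%. At regions with 2 control peaks, all 3 drug heights lay below both controls at 322 regions (9.77%), beside 14.4%. With 1 control peak, all 3 drug heights exceeded it at 1411 of 2384 regions (59.2%), beside 22.5% of the 18888 regions with at least 1 control peak. Larger numbers of control values make separation rarer by construction, and the rule used this contrast.

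Compared with the same control libraries at fully shared regions, the separation differed by pattern. For controls 1 and 3, all drug heights were above at 33.2% of partly shared regions and at 18.3% of fully shared ones. For controls 2 and 3 these shares were 23.0% and 18.1%, and for controls 1 and 2 they were 37.5% and 17.7%. With control 3 alone they were 61.2% and 28.6%, with control 1 alone 58.5% and 30.5%, and with control 2 alone 32.8% and 29.7%. The median log2 difference was 0.30 for control 3 alone, 0.26 for control 1 alone, 0.20 for controls 1 and 2, 0.15 for controls 1 and 3, 0.07 for control 2 alone and 0.04 for controls 2 and 3.

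The order of the patterns rested on the scaling. By depth alone, the median log2 difference was highest for control 2 alone, at 0.58, and lowest for controls 1 and 3, at 0.30. It was 0.53 for controls 1 and 2, 0.48 for control 3 alone, 0.40 for control 1 alone and 0.38 for controls 2 and 3. On that scale all drug heights were above the control in 81.9% of the regions seen in control 2 alone, beside 78.4% of fully shared regions. The shares were 73.5% and 43.6% for control 3 alone and 71.6% and 41.6% for control 1 alone. They were 66.7% and 39.4% for controls 1 and 2, 52.3% and 41.3% for controls 2 and 3 and 45.4% and 29.4% for controls 1 and 3. In each pattern and on both scales the share was larger at partly shared than at fully shared regions, with the gap smallest for control 2 alone.

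At partly shared regions, differences above 1 log2 unit were found in 1 direction, and the rule used this contrast. The drug mean exceeded the control mean by more than 1 log2 unit at 280 partly shared regions (4.93%), beside 1.86% of the regions with 3 drug and at least 1 control peak. It was more than 1 log2 unit below at 0 partly shared regions, beside 0.132%. The opposite class showed the reverse, with 0 regions above by this size and 15 (1.49%) below. By depth alone, 549 partly shared regions (9.67%) were above this size, beside 4.29%.

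**Figure D3:**
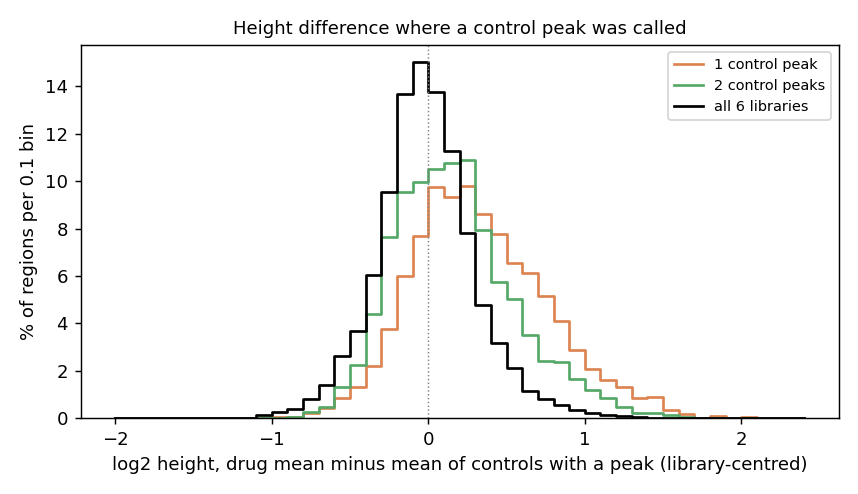
Share of regions per bin (vertical axis) against the log2 relative height of the drug mean minus the mean of the controls with a peak (horizontal axis). The curves for 1 control peak (orange, median 0.28) and 2 control peaks (green, median 0.13) reach further to the right than that of fully shared regions (black, median −0.02), and all 3 overlap widely. Centring on the fully shared regions keeps the black median small by construction.

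The missing control calls were set against the calling limit of each control list. At the mean relative height of the drug libraries, scaled to the control library's own median height and depth, 2365 of 2365 regions missing in control 1 and 761 of 761 missing in control 3 would have reached the lowest −log10 p in that list, 4.37 and 4.23. In control 2, with a limit of 4.54, 4730 of 4937 (95.8%) would have. For drug-only regions the shares in controls 1 to 3 were 99.98%, 92.7% and 100%, and for fully shared regions 100%, 99.3% and 100%. The local background was the mean of the drug libraries, scaled to the control's depth. All these heights come from regions called in all 3 drug libraries, so the shares cannot tell why a control call is missing. The comparison also counts the summit alone. No called peak was narrower than 200 bp, and a summit past the limit over a shorter stretch gives no peak. Many control peaks lay close to that width, with 32.5%, 48.0% and 24.3% of those in control replicates 1 to 3 under 250 bp, against 5.71%, 12.3% and 1.79% at fully shared regions. Whether a missing call reflects height or width was not tested.

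Overlap of control and drug peaks was part of the rule, so their positions are given as a description. The summit of a control peak lay a median of 43 bp from a drug summit, and 2 drug summits lay a median of 42 bp apart. At 5342 regions (94.1%) at least 1 base was common to the highest peak of every library that had one, beside 95.8% of fully shared regions. The control peak was narrower than the drug peak at 4329 regions (76.2%), beside 68.7% of fully shared regions, and the median width ratio was 0.79, beside 0.91. At 3536 regions (62.3%) the control peaks lay wholly within the stretch spanned by the drug peaks, beside 36.1% of fully shared regions, which have more control peaks.

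In few regions was the best overlap of control and drug peaks close to the 1 bp limit of the rule. The best overlap of a control peak with a drug peak had a median of 309 bp, was at least 19 bp and was under 100 bp at 9 regions. This overlap is that of 1 pair of peaks per region, so the joining of the remaining peaks is not covered. Just outside the rule, 9 drug-only regions had a control peak within 100 bp that did not overlap. On the other side of the limit, several peaks of 1 library fell into the same region at 400 partly shared regions (7.04%), beside 15.2% of fully shared regions.

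The 3 drug libraries varied alike at these regions. The SD of log2 height over the drug libraries had a median of 0.185, against 0.155 at fully shared regions and 0.196 at drug-only regions. Drug replicate 1 was the lowest of the 3 at 30.8% of regions, drug replicate 2 at 35.3% and drug replicate 3 at 33.9%. Median summit pileups were 25, 21 and 26 tags in drug replicates 1 to 3. They were 20, 19 and 25 tags for the controls, in the same order. A pileup of 20 tags has an exact 95% Poisson interval of 12.2 to 30.9, which covers counting error only, so a difference at a single region between 2 libraries is imprecise.

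Single regions show the range, from drug peaks well above the control peaks to nearly equal heights and to lower drug peaks. Positions count from 1 on contigs of an assembly that is not named in the sources used here, and carry no gene or exon annotation. The highest-ranked region with peaks in controls 1 and 3 lay on LUXX01089641.1 at 699146 to 700141. Its relative heights were 0.636 and 0.364 in controls 1 and 3 and 1.47, 1.55 and 1.68 in drug replicates 1 to 3, so the groups did not overlap. The drug mean exceeded the control mean by 1.70 on the log2 scale, the highest value of any region with 2 control peaks. The nearest fully shared region was 105474 bp away.

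The highest drug ranks of all 12 regions chosen by pattern belonged to LUXX01062832.1 at 3369861 to 3370673, with peaks in controls 2 and 3. Its relative height was 0.724 and 0.864 in those controls and 2.22, 2.13 and 2.08 in the drug libraries, a log2 difference of 1.44. The second region of this pattern, on LUXX01089374.1 at 2702927 to 2703670, stood at 0.828 and 0.568 in controls 2 and 3 and at 1.33, 1.52 and 1.45 under the drug. In both regions every drug library was above both controls.

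With controls 1 and 3, the second-ranked region was on LUXX01056970.1 at 53035 to 53813. It had relative heights of 0.727 and 0.955 in controls 1 and 3 and of 1.61, 1.90 and 1.82 in the drug libraries. For controls 1 and 2, the region on LUXX01067594.1 at 526094 to 526864 stood at 0.424 and 0.483 in the controls and at 1.36, 1.42 and 1.29 under the drug. The third control list had no peak there, although it was the longest of the controls. The other region of that pattern, on LUXX01081950.1 at 99916 to 100413, had 0.394 and 0.655 in controls 1 and 2 and 0.861, 1.48 and 1.08 in the drug libraries.

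Among the regions seen in 1 control, the one with the highest drug ranks for control 1 was on LUXX01034126.1 at 4193681 to 4194615. Control 1 stood at 0.364 there and the drug libraries at 1.31, 1.84 and 1.32, a log2 difference of 2.01. On LUXX01097390.1 at 1043194 to 1043801, control 3 stood at 0.386 and the drug libraries at 1.31, 1.42 and 1.32. The higher-ranked region of that pattern, on LUXX01019373.1 at 2278685 to 2279241, had 0.432 in control 3 and 1.03, 1.26 and 1.18 under the drug, with an authors' fold enrichment of 12.3 ± 1.24 in the drug lists (SD, n = 3).

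The second region seen in control 1 alone lay on LUXX01081260.1 at 85 to 852 and was the only region of its contig. It had a relative height of 0.333 in control 1 and of 0.861, 1.03 and 1.29 under the drug. For control 2 alone, the region on LUXX01017983.1 at 183672 to 184202 stood at 0.448 in the control and at 0.889, 1.13 and 0.816 under the drug. The region on LUXX01073386.1 at 1535472 to 1536092 stood at 0.793 and at 1.31, 0.968 and 1.21. These 12 regions were chosen for high drug ranks, which favours drug heights above the control ones.

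**Figure D4:**
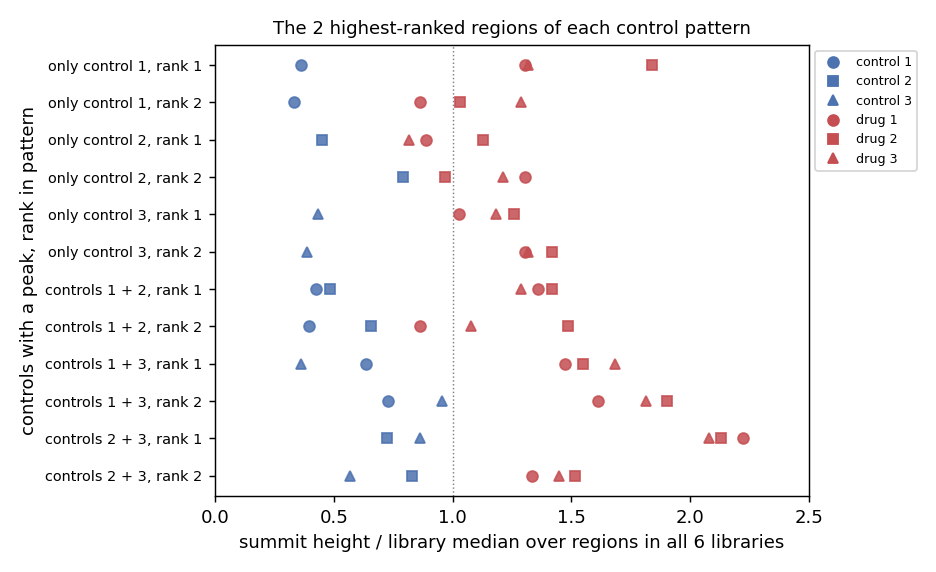
Relative summit height (horizontal axis) in each library with a peak, for the 2 partly shared regions of each control pattern that ranked highest in the drug lists (vertical axis), controls in blue and drug in red. In every one of the 12 regions all drug symbols lie to the right of all control symbols, as the choice by drug rank favours.

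At the other end, some regions with 2 control peaks were higher in the controls that called them. On LUXX01031004.1 at 383385 to 384130 the relative height was 1.36 and 0.750 in controls 1 and 3 and 0.611, 0.387 and 0.553 in the drug libraries, a log2 difference of −0.99. On LUXX01034126.1 at 643169 to 643678 controls 1 and 3 had 1.24 and 1.14 and the drug libraries 0.583, 0.677 and 0.658. On LUXX01014293.1 at 2033125 to 2033693 controls 1 and 3 had 0.970 and 1.02 and the drug libraries 0.556, 0.548 and 0.579. All 3 lacked a call in control replicate 2. They met the rule although every drug height was under both control heights.

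The remaining regions with the highest differences were on LUXX01067932.1 at 110 to 1119 and on LUXX01096747.1 at 302703 to 303461, with log2 differences of 1.63 and 1.62. The first was the only region on its contig. The 3 regions nearest the median difference of 0.13 were chosen by that value alone and need not be typical otherwise. On LUXX01007272.1 at 1808126 to 1808516, controls 1 and 3 stood at 1.12 and 1.23 and the drug libraries at 1.17, 1.35 and 1.34. On LUXX01033751.1 at 1123136 to 1124039, the controls stood at 0.424 and 0.409 and the drug libraries at 0.50, 0.452 and 0.421. On LUXX01038884.1 at 502909 to 503432 they stood at 0.515 and 0.432 and at 0.528, 0.452 and 0.579. In all 3 of these, drug and control heights overlapped.

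Position along the contigs was not used by the rule. Partly shared regions lay about as close to fully shared regions as fully shared regions lay to each other. Drug-only regions lay further away, and regions of the opposite class lay closer where their contig held a fully shared region. The median distance from a partly shared region to the nearest fully shared one was 35357 bp (quartiles 13180.5 and 95277.5) over the 5419 that had one on their contig. Between fully shared regions it was 31658 bp and from drug-only regions 66317 bp. From the opposite class it was 23219 bp, over the 729 of 1009 regions with a fully shared region on their contig. Within 10 kb of a fully shared region lay 18.7% of partly shared, 18.4% of fully shared and 11.5% of drug-only regions, and 23.1% of the opposite class. Within 50 kb lay 56.8% of partly shared regions and 51.9% of the opposite class. Within 1 kb lay 192 partly shared regions (3.38%). The median was 39485.5 bp with 1 control peak and 32650 bp with 2. Regions are not replicates, so no test accompanies these distances.

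Contigs rich in fully shared regions were rich in partly shared ones. Over the 257 contigs with at least 60 regions, which held 3119 partly shared regions, the densities per Mb of the 2 classes correlated at a Spearman rho of 0.70 (Pearson r 0.75). Partly shared and drug-only densities correlated at a rho of 0.08 (r 0.04). Drug-only and fully shared densities correlated at a rho of 0.12 (r 0.11), so the low value is not particular to partly shared regions. The points share all 6 libraries and a density measured to the last region of each contig, and contigs were required to hold many regions of any kind, so these values are descriptions without a p.

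**Figure D5:**
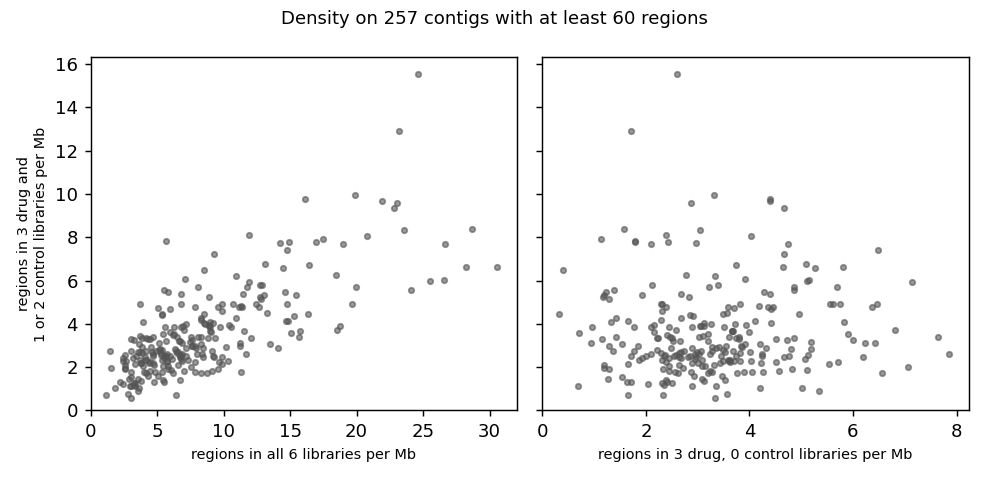
Partly shared regions per Mb (vertical axis) against fully shared regions per Mb (left) and drug-only regions per Mb (right), each point being 1 of 257 contigs with at least 60 regions. The points lie along a rising band on the left (rho 0.70) and show hardly any slope on the right (rho 0.08).

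The share of partly shared regions varied less between contigs than that of drug-only regions. Among regions present in all 3 drug libraries, it was 23.3% over these contigs, with an SD of 6.86 percentage points, against 11.2 for drug-only regions. It ranged from 8.0% on LUXX01050586.1, with 2 partly shared regions, to 51.2% on LUXX01012885.1, with 22 partly shared, 16 fully shared and 5 drug-only regions. The nearest region of any kind was another partly shared region for 11.9% of partly shared regions, and such regions made up 11.1% of all. It was a fully shared one for 24.6%, beside 25.8% of all regions, and a drug-only one for 11.1%, beside 11.9%.

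Partly shared regions occurred on 1215 of the 4046 contigs that held any region. On contigs with at most 2 regions lay 167 of them (2.94%), beside 2.03% of drug-only regions, 7.35% of fully shared regions and 26.2% of the opposite class. The contig with most was LUXX01096074.1, with 48 partly shared, 164 fully shared and 9 drug-only regions, followed by LUXX01052731.1 with 45, 98 and 14. The densest 100 kb stretch was on the latter contig at 2050785 to 2138199. It held 6 partly shared regions, 5 of them with peaks in controls 1 and 3 and 1 in control 3 alone, beside 2 fully shared and 0 drug-only regions. Several stretches held 5, among them LUXX01004870.1 at 156521 to 219749, where all 5 had peaks in controls 1 and 3.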

How the data were processed

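The 6 deposited narrowPeak lists, 1 per library, were used. MACS2 2.1.0, Bowtie2 2.4.2, Trim Galore 0.6.6, bcl2fastq 2.17 and deepTools are named in the submitters' processing notes. Settings and genome build are not given in the sources used. The authors deposited for each peak a fold enrichment (a ratio), a −log10 p, a −log10 q, a score of 10 times that −log10 q and a summit offset.

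Summit pileup and local background were solved from each deposited fold and −log10 p under MACS2's Poisson model, and 100% of peaks in each list matched within a relative 0.0001. The lowest background of a list was taken as library depth. Read totals are unknown. The solver was tested on simulated data and recovered 100% of 3461 peaks. Each library's median over fully shared regions was subtracted from its log2 heights, and the highest peak of a library stood for a region.

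Named regions were the 2 of each control pattern with the highest mean drug percentile, and, among those with 2 control peaks, the 3 highest, 3 lowest and 3 nearest the median in log2 difference, with the 2 richest contigs and the 2 densest 100 kb stretches. Regions, rules and alternatives were chosen with earlier results of these data known. No gene, sequence or motif was used, because no genome of these contigs was used. The work used scipy 1.17.1, pandas 2.3.3, numpy 2.4.6 and matplotlib 3.10.9 under Python 3.11.15.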

Additional observations from a re-analysis of the deposited data

How the results depend on the processing

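The count of 5679 partly shared regions was 5009 at a −log10 q of at least 5, 6562 at 50% coverage and 5714 with 100 bp either side of summits. It was 1580 in equal lists and 2896 to 6855 with 1 library left out, lowest without control replicate 2. The opposite class (1009) numbered 2396 in equal lists, 1945 with summit windows and 585 to 2309 with 1 library left out. The share of regions with 2 control peaks (58.0%) was 61.5% in equal lists and 55.8% to 57.1% without 1 drug library. It has no value without a control. The median log2 height difference (0.19) kept its sign under each alternative run. It was 0.32 in equal lists, 0.38 without centring, 0.16 with fold enrichment as height and 0.11 to 0.24 with 1 library left out. It was 0.21 when control replicate 2 was not averaged, an alternative chosen after seeing the data. The drug peak width (401 bp) was 429 bp at the stricter q, 505 bp in equal lists, 562 bp as merged width and 375 to 411 bp with 1 library left out. The distance to a fully shared region (35357 bp) was 38426.5 bp at the stricter q, 55972.5 bp in equal lists, 30501 bp on contigs with at least 60 regions and 31285 to 35151 bp with 1 library left out. Equal lists cut weak peaks from all but the shortest list, and fewer libraries change the criterion by construction. Other causes were not tested.

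With the replicate number as a block, the median log2 height difference was 0.21. The numbers showed no pairing: height deviations from group means at fully shared regions correlated at −0.0136, −0.0033 and 0.0034 between libraries of the same number, and no control correlated best with its own number. A missing peak means only that none was called in that library, and does not show closed chromatin. Genes, sequences and motifs were not analysed.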
